A study of Mus musculus with 18 samples.

Results

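The 10 smooth muscle contractile genes are Acta2, Actg2, Myh11, Myl9, Tagln, Cnn1, Cald1, Tpm1, Tpm2 and Lmod1. The list was given by gene name, with no threshold on measured values but with earlier results of these data known, and its members were 10 of the 17091 genes that could be named on the arrays. The RefSeq transcript identifiers of the array table were matched to gene symbols, and where a gene had several probe sets the brightest on average was kept. All 10 genes were measured, and none shared its values with another gene. Myh11 had 2 probe sets with identical values, Tpm1 had 10 probe sets with 4 distinct sets of values, and the other 8 genes had 1 probe set each.

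Smooth muscle shortens when myosin heads pull on actin filaments, and calcium starts this through phosphorylation of the myosin regulatory light chain. The actins, the heavy chain, the light chain, tropomyosin and the thin filament proteins caldesmon, calponin and transgelin are made together in smooth muscle, and several of them also appear in cultured fibroblasts and in myofibroblasts, which form stress fibres. Many of these genes are known targets of serum response factor (SRF), which binds a sequence called the CArG box together with the cofactors myocardin or the myocardin-related transcription factors. Cyclin C, encoded by Ccnc, partners the kinases CDK8 and CDK19 within Mediator, which carries signals from DNA-bound activators to the transcription machinery.

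RNA was measured on 18 single-colour arrays of mouse samples, in 6 groups of 3 that the labels call biological replicates. The groups were CCNC-/- and wild-type (titled control) primary embryonic fibroblasts (MEF), CCNC-/- and wild-type embryonic stem (ES) cells, and CCNC-/- and wild-type embryonic brain at E18.5. The labels name no promoter or Cre for the deletion, give the growth conditions only as standard, and do not say whether replicates were separate embryos, lines or cultures, so p-values measure the spread between these arrays. Values are log2 expression after RMA, so a difference of 1 is a 2-fold change, and they ran from 3.75 to 15.36 over the table.

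Ccnc, the deleted gene, had its 3 knockout arrays below the 3 controls in each cell type. It averaged 8.27 ± 0.03 in knockout and 9.57 ± 0.03 in control fibroblasts, 6.93 ± 0.35 in knockout and 9.30 ± 0.17 in control ES cells, and 8.21 ± 0.15 in knockout and 8.90 ± 0.30 in control brain (log2, SD, n = 3 each). The limma adjusted p-values were 6.77e-06, 0.0247 and 0.627 for fibroblasts, ES cells and brain. The mean of 10 fibroblast markers lay between 11.72 and 12.21 in the MEF arrays, against 7.69 to 8.05 in the ES cell arrays and 8.96 to 9.53 in the brain arrays. The mean of 8 pluripotency markers was 12.21 to 12.87 in ES cell arrays, against 6.17 to 6.43 in MEF arrays and group means of 6.98 in knockout and 6.92 in control brain, and that of 9 neuronal markers at least 12.38 in brain arrays and at most 8.15 elsewhere.

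The actins are encoded at chr19:34240336-34255585 (Acta2, smooth muscle alpha-actin) and chr6:83512909-83536251 (Actg2, smooth muscle gamma-actin), all positions here being those of GRCm38.p6. The myosin genes lie at chr16:14194527-14292188 (Myh11, the smooth muscle heavy chain) and chr2:156775408-156781657 (Myl9, a regulatory light chain). The thin filament genes lie at chr9:45929628-45936058 (Tagln, transgelin or SM22), chr9:22099221-22109221 (Cnn1, calponin 1), chr6:34598495-34775469 (Cald1, caldesmon), chr9:67022590-67049672 (Tpm1) and chr4:43513726-43523583 (Tpm2), the last pair encoding tropomyosins. Lmod1, the smooth muscle leiomodin, which starts actin filaments, lies at chr1:135324813-135368065.

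Promoter sequences of RefSeq (GRCm38.p6) were at hand for 7 of the 10 genes, with 8 start sites, as Cald1 has 2. The table does not list Actg2, Tagln or Myh11. The 250 bases before the start site are shown for Myl9 and Acta2, which held matches to the CArG box or to its looser form, and for Lmod1, which held a CATTCC match, the core of the sequence bound by TEAD factors. Capitals mark these matches, which do not overlap each other. The Myl9 sequence is chr2:156775214-156775463 on the plus strand, the Acta2 sequence chr19:34255374-34255623 on the minus strand, and the Lmod1 sequence chr1:135324563-135324812 on the plus strand. The start sites used here are not always the gene ends given above. Part of the Myl9 sequence and most of the Acta2 sequence lie inside those gene spans.
Myl9: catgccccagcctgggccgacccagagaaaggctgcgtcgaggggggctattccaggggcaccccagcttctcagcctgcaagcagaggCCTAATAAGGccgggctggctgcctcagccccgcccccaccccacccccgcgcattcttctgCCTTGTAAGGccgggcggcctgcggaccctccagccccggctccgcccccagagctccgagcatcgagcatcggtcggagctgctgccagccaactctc
Acta2: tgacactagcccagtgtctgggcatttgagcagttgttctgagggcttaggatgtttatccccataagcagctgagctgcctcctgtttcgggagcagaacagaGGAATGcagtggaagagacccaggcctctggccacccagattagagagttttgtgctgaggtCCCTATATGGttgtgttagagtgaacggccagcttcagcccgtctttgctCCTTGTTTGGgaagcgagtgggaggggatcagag
Lmod1: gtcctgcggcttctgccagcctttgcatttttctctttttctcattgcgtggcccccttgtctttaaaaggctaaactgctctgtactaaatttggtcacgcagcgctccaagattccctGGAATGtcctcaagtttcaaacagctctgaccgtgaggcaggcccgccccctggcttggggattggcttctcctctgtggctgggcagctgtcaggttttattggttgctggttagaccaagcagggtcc

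A CArG box (CC, then 6 bases that are each A or T, then GG) was searched on both strands from 250 bases before to 50 bases after each start site. It was found at 1 of the 8 start sites, that of Myl9, where it read CCTAATAAGG and began 161 bases before the start. Of all 32851 promoters in the table, 1.63% held one. With 1 of the 6 inner bases left free, Myl9 held a second match, CCTTGTAAGG, 99 bases before the start, and Acta2 held CCCTATATGG and CCTTGTTTGG, 84 and 34 bases before its start. This looser form stood in 2 of the 8 member promoters and in 9.98% of all promoters. CATTCC, on either strand, stood in 4 of the 8, those of Acta2, Cald1, Tpm1 and Lmod1, and in 14.7% of all promoters. TATAAA stood in 1 of the 8, 186 bases before a Cald1 start, and in 8.32% of all. These matches describe the letters in this window only.

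In control cells, all 10 genes were higher in fibroblasts than in ES cells and in brain. The difference from ES cells passed limma's adjusted p of 0.05 for all 10 genes, where 23.8% of all genes were called higher, and was also above 2-fold for 9 of them, where 9.66% of all genes were. The difference from brain passed both for all 10, where 14.3% of all genes did. The median of the 10 differences was 2.98 against ES cells and 4.78 against brain, while the medians over all genes were -0.14 and 0.11 (log2). In these bulk samples, fewer cells of a type and less RNA per cell cannot be told apart.

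Acta2 read 14.60, 14.53 and 14.46 in control fibroblasts, 11.40, 11.57 and 11.35 in control ES cells, and 9.10, 8.98 and 9.66 in control brain. The 3 cell types did not overlap. Its fibroblast mean was 3.09 above ES cells (SE 0.15, adjusted p 2.56e-08) and 5.28 above brain (SE 0.15, adjusted p 2.89e-10). Actg2 read 11.76, 11.68 and 11.31 in control fibroblasts, 6.15, 6.14 and 6.26 in ES cells, and 5.97, 5.90 and 5.86 in brain. Its fibroblast level was 5.40 above ES cells (SE 0.12) and 5.68 above brain (SE 0.12), while brain and ES cells lay close to each other. The difference of brain from ES cells was -0.27 (SE 0.12, adjusted p 0.0553), and the 2 groups did not overlap.

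Myh11, often used as the most specific marker of differentiated smooth muscle, had the smallest differences of the 10 genes between control fibroblasts and the other cell types. It read 7.41, 7.37 and 7.13 in control fibroblasts, 6.37, 6.80 and 5.95 in ES cells, and 5.69, 6.08 and 5.87 in brain. Fibroblasts were 0.93 above ES cells (SE 0.19, adjusted p 0.00130) and 1.42 above brain (SE 0.19, adjusted p 5.29e-05). The difference of brain from ES cells was -0.49 (SE 0.19, adjusted p 0.0358) with 1 ES cell array inside the range of brain. That call was lost in a fit of the 6 arrays of those cell types (adjusted p 0.0576), with quantile normalization (0.0981), and without ES cell control array 1 (0.0607) or 2 (0.134) or brain control array 1 (0.125) or 3 (0.0803), with a difference of -0.28 without ES cell control array 2. Myl9 read 12.97, 13.08 and 12.62 in control fibroblasts, 9.47, 8.31 and 8.09 in ES cells, and 7.64, 8.08 and 8.04 in brain. ES cell array 1 was the high one of its group. Fibroblasts were 4.26 above ES cells (SE 0.30) and 4.97 above brain (SE 0.30), and brain differed from ES cells by -0.70 (SE 0.30, adjusted p 0.0543).

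Tagln separated all 3 cell types. It read 14.10, 14.13 and 13.90 in control fibroblasts, 12.52, 11.83 and 11.78 in ES cells, and 8.11, 8.26 and 8.32 in brain. Brain differed from ES cells by -3.81 (SE 0.17, adjusted p 6.20e-09), the largest of the 10 differences between those 2 cell types. Cnn1 read 12.07, 12.13 and 11.84 in control fibroblasts, 9.58, 8.76 and 8.32 in ES cells, and 6.25, 6.60 and 6.34 in brain. Its groups did not overlap either, and its fibroblast level was 3.13 above ES cells (SE 0.25) and 5.62 above brain (SE 0.25). Cald1 read 13.67, 13.67 and 13.66 in control fibroblasts, 10.96, 10.41 and 10.18 in ES cells, and 9.51, 9.68 and 9.84 in brain. Brain differed from ES cells by -0.84 (SE 0.17, adjusted p 8.94e-04).

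The tropomyosins followed the same order. Tpm1 averaged 14.03 ± 0.05 in control fibroblasts, 12.11 ± 0.33 in ES cells and 9.43 ± 0.26 in brain (SD, n = 3 each). Tpm2 averaged 11.09 ± 0.08 in control fibroblasts, 8.23 ± 0.40 in ES cells and 7.11 ± 0.14 in brain. Lmod1 averaged 9.26 ± 0.27 in control fibroblasts, 8.04 ± 0.11 in ES cells and 7.01 ± 0.22 in brain. The differences of brain from ES cells were -2.68 for Tpm1 (SE 0.16), -1.11 for Tpm2 (SE 0.17) and -1.02 for Lmod1 (SE 0.15), each with a limma adjusted p of at most 1.21e-04. Over the 10 genes, 8 were called lower in brain than in ES cells, where 47.8% of all genes were, and 6 also by more than 2-fold, where 20.3% of all genes were. The number past 2-fold ranged from 4 to 7 when single arrays were left out, where 5591 to 5704 of all genes passed in either direction.

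**Figure D1:**
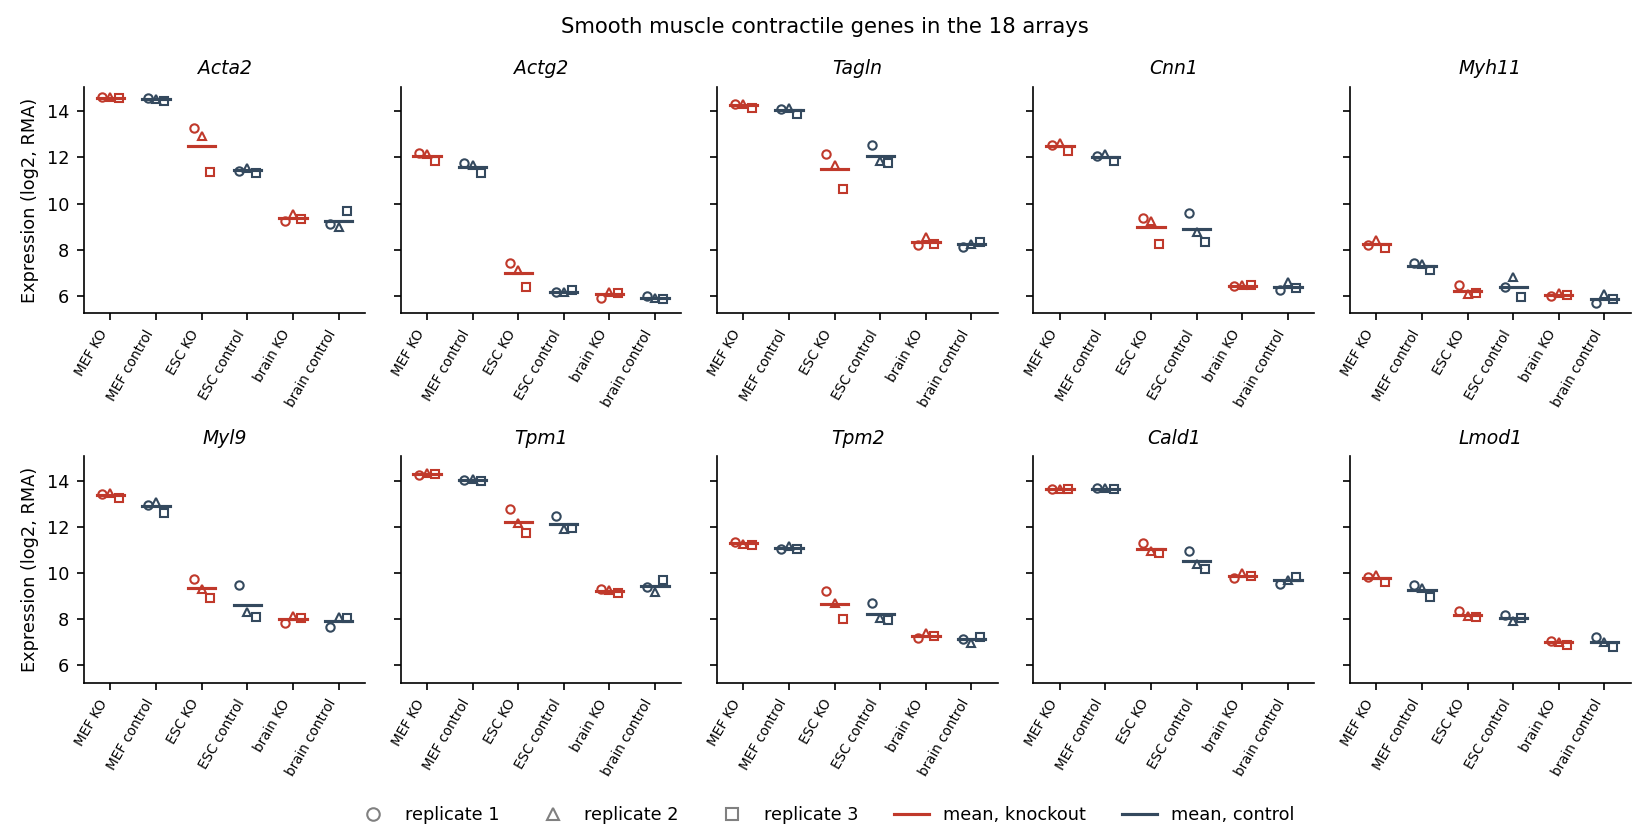
Log2 expression (RMA) of each of the 10 genes in all 18 arrays, 1 panel a gene, with knockout left of control in each cell type; symbols are single arrays and lines are group means. All 10 genes are highest in fibroblasts, and in knockout ES cells array 3 (square) lies below the other 2 for Acta2, at 11.35 against 13.27 and 12.92.

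**Figure D2:**
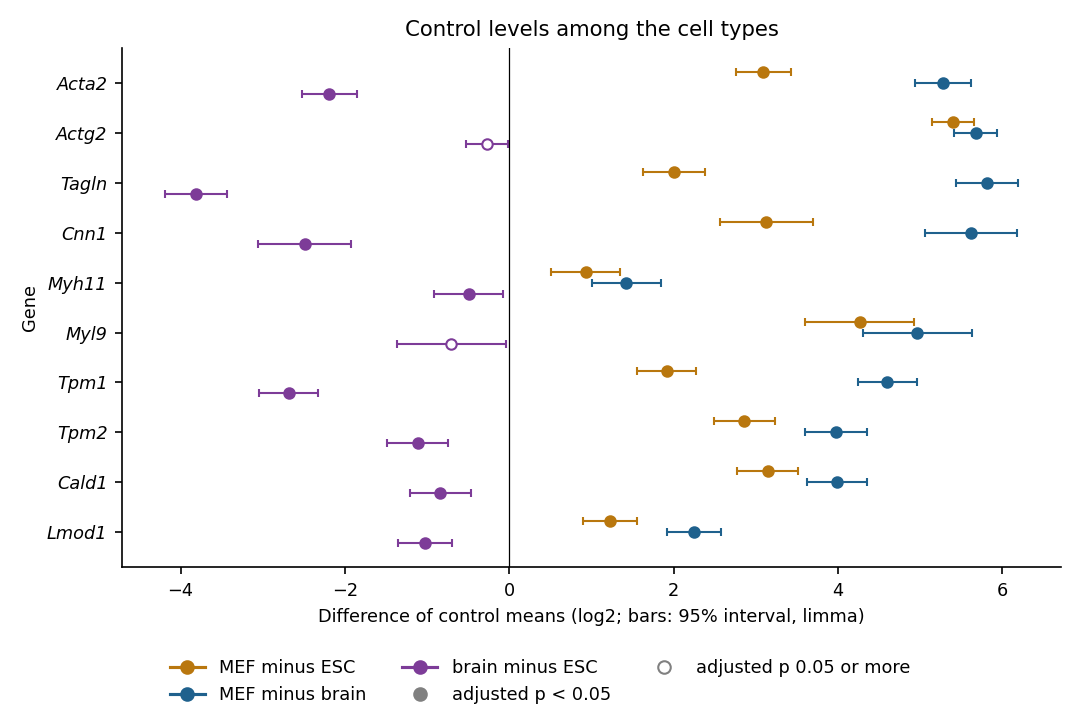
Differences between control means of the cell types for each gene (log2, horizontal axis) with 95% intervals from limma; filled points passed an adjusted p of 0.05. Fibroblasts were above ES cells and brain for all 10 genes, and brain was called below ES cells for 8, not for Actg2 or Myl9.

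In cyclin C knockout fibroblasts, 6 of the 10 genes rose and 0 fell: Myh11, Lmod1, Myl9, Actg2, Cnn1 and Tpm1. Over all genes 7.11% were called higher and 4.93% lower, 12.0% in all. The largest of the 10 changes was that of Myh11, 1.90-fold, and the other 5 that passed lay between 1.20-fold (Tpm1) and 1.43-fold (Lmod1). The knockout and control arrays did not overlap for 8 of the 10 genes, all with the knockout higher, where 18.4% of all genes had that pattern. The median of the 10 effects was 0.37 against 0.01 over all genes (log2, knockout minus control).

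Myh11 read 8.22, 8.42 and 8.06 in knockout fibroblasts, against 7.41, 7.37 and 7.13 in control fibroblasts. Every knockout array lay above every control array, with a difference of 0.93 (SE 0.10, adjusted p 9.10e-04). Its call held with each of the 6 arrays left out, with adjusted p-values from 0.00150 to 0.00493. Myl9, whose phosphorylation switches smooth muscle contraction on, read 13.41, 13.46 and 13.25 in knockout fibroblasts, against 12.97, 13.08 and 12.62 in controls. Its groups did not overlap and differed by 0.49 (SE 0.10, adjusted p 0.0170).

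Of the 2 actins, Actg2 passed the test and Acta2 did not. Actg2 read 12.21, 12.17 and 11.83 in knockout fibroblasts, against 11.76, 11.68 and 11.31 in control fibroblasts, a difference of 0.48 (SE 0.12, adjusted p 0.0344) with no overlap. Acta2 read 14.62, 14.61 and 14.58 in knockout fibroblasts, against 14.60, 14.53 and 14.46 in control fibroblasts, and 1 control array lay inside the knockout range. Its difference was 0.07 (95% interval -0.03 to 0.18, adjusted p 0.364). Acta2 stood close to the highest value in the table, 15.36, in both groups, and whether the arrays still responded in proportion there was not tested.

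Among the thin filament genes, Cnn1, an inhibitor of the myosin motor in smooth muscle, read 12.56, 12.62 and 12.30 in knockout fibroblasts, against 12.07, 12.13 and 11.84 in controls. The groups did not overlap and differed by 0.48 (SE 0.09, adjusted p 0.0119). Tagln, an actin-bundling relative of calponin, read 14.31, 14.32 and 14.16 in knockout fibroblasts, against 14.10, 14.13 and 13.90 in controls. It too did not overlap, with a difference of 0.22 (SE 0.07) that missed the threshold (adjusted p 0.0717). Cald1, which blocks myosin binding to actin until it is released, read 13.66, 13.65 and 13.64 in knockout fibroblasts and 13.67, 13.67 and 13.66 in controls. Its difference was -0.02 (95% interval -0.10 to 0.07, adjusted p 0.827).

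Tropomyosin winds along the actin filament and sets which proteins can bind it. Tpm1 read 14.24, 14.32 and 14.31 in knockout fibroblasts, against 14.02, 14.08 and 13.98 in controls, a difference of 0.26 (SE 0.04, adjusted p 0.00596) with no overlap. The 4 distinct Tpm1 probe sets gave differences of 0.26, 0.18, 0.18 and 0.26. Tpm2 read 11.35, 11.28 and 11.22 in knockout fibroblasts, against 11.05, 11.18 and 11.05 in controls. Its groups did not overlap, and its difference of 0.19 (SE 0.06) lay at an adjusted p of 0.0506. Lmod1 read 9.83, 9.90 and 9.61 in knockout fibroblasts, against 9.48, 9.35 and 8.96 in controls, a difference of 0.52 (SE 0.12, adjusted p 0.0251), again without overlap.

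Array 3 was the lowest of its group for most of these genes in knockout and in control fibroblasts alike. In control array 3 all 10 genes were below their group mean, and in knockout array 3 the count above it was 1 of 10. With the replicate number as a block, Tagln and Tpm2 also passed (adjusted p 0.00369 and 0.0223), which gave 8 of 10 called higher, where 10.3% of all genes were called higher. With quantile normalization the count stayed at 6, with Acta2 called (0.18, adjusted p 0.0450) and Actg2 not (adjusted p 0.0636). Over all genes that scaling gave 1057 higher and 1087 lower calls, against 1216 higher and 842 lower in the values as deposited.

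Leaving out single arrays gave 2 to 8 called genes, and 2 only without knockout array 2, where Myh11 and Tpm1 passed. Without that array the adjusted p-values were 0.131 for Actg2, 0.0556 for Cnn1, 0.0774 for Myl9 and 0.106 for Lmod1. Actg2 also missed the threshold without control array 2 (0.0630), control array 3 (0.0897) or knockout array 1 (0.0765), and Lmod1 without control array 2 (0.0528) or knockout array 1 (0.0517). In 1 limma fit of all 18 arrays, where ES cell and brain arrays add to the estimated spread, only Myh11 passed, and 210 of all genes did. The median SD over all genes was 0.08 in knockout and 0.06 in control fibroblasts, against 0.16 and 0.15 in knockout and control ES cells.

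**Figure D3:**
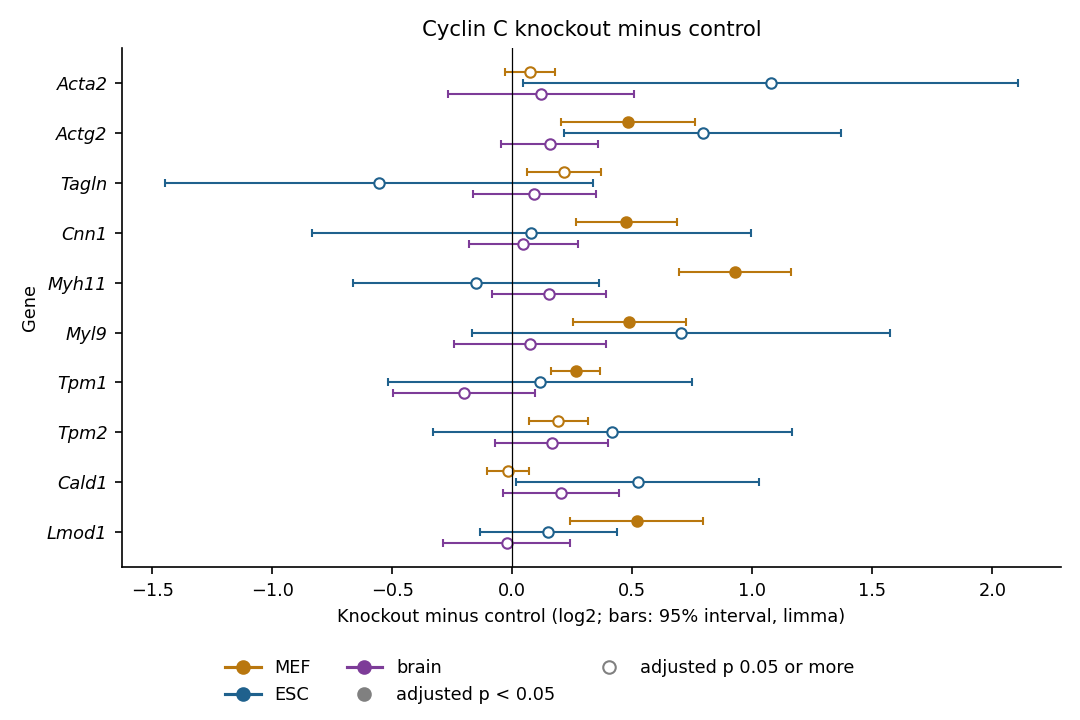
Knockout minus control (log2, horizontal axis) for each gene in fibroblasts, ES cells and brain, with 95% intervals from limma; filled points passed an adjusted p of 0.05. The 6 filled points are all in fibroblasts, from 0.26 for Tpm1 to 0.93 for Myh11, and the widest intervals are those of ES cells.

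Further genes of the same systems were read in fibroblasts from lists. Of 19 other measured smooth muscle genes, 9 rose and 1 fell, with a median of 0.30. The 4 with the smallest p were Kcnmb1, the beta subunit of the calcium-activated potassium channel of smooth muscle (0.49, SE 0.06, adjusted p 0.00146), Fhl1, a LIM protein (0.34, SE 0.06, adjusted p 0.00535), Lpp, a focal adhesion LIM protein (0.32, SE 0.05, adjusted p 0.00582), and Pdlim7, a PDZ and LIM protein of actin filaments (0.37, SE 0.06, adjusted p 0.00593). Kcnmb1 read 8.16, 8.26 and 8.26 in knockout fibroblasts, against 7.72, 7.78 and 7.71 in controls, with no overlap. These 4 kept their calls with each array left out. In 1 limma fit of all 18 arrays, Fhl1 (adjusted p 0.636), Lpp (0.323) and Pdlim7 (0.375) lost theirs. The count of the list that rose ranged from 4 to 10 across the fits that left out 1 array, with 4 without control array 3 and 5 without knockout array 2.

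Srf itself rose slightly. It read 10.41, 10.44 and 10.41 in knockout fibroblasts, against 10.23, 10.24 and 10.18 in controls, a difference of 0.20 (SE 0.04, adjusted p 0.0185). That call was lost in 4 of the 6 fits that left out 1 array, with adjusted p-values up to 0.0822. It was also lost in 1 limma fit of all 18 arrays (adjusted p 0.413). None of the other genes of this list reported here passed. Differences were 0.12 for Mrtfa, 0.17 for Mrtfb, 0.06 for Myocd, 0.13 for Elk1, -0.10 for Elk3, -0.04 for Elk4, 0.03 for Foxf1 and -0.06 for Tead1. Myocd, the cofactor made in differentiated smooth and cardiac muscle, averaged 6.87 in knockout and 6.81 in control fibroblasts. Mrtfb passed with the replicate number as a block (adjusted p 0.0447) and without knockout array 1 (0.0445), and Elk3 was called lower with quantile normalization (-0.15, adjusted p 0.0448).

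Of 13 measured SRF targets, mostly cytoskeletal but with the secreted Ccn1 among them, 6 rose and 0 fell, with a median of 0.13. Those with the smallest p were Ankrd1, an ankyrin repeat protein of muscle (0.66, SE 0.10, adjusted p 0.00420), Ccn1, a secreted matrix-associated protein (0.36, SE 0.06, adjusted p 0.00532), Vcl, vinculin of focal adhesions (0.28, SE 0.05, adjusted p 0.00577), and Actn1, the crosslinker alpha-actinin (0.21, SE 0.04, adjusted p 0.0170). A mostly non-muscle list held 9 measured actin, myosin, tropomyosin and related genes, among them the leiomodin Lmod2. Of these, 0 rose and 1 fell, the light chain Myl12b (-0.30, SE 0.07, adjusted p 0.0180), with a median of -0.02. The Myl12b call was lost without control array 1 (adjusted p 0.0618), control array 3 (0.0658) or knockout array 2 (0.0823). Without control array 2, Tpm3 was called higher (0.46, adjusted p 0.0237). Beta-actin, Actb, differed by -0.02 (adjusted p 0.850). Of 12 TGF-beta targets, 6 rose and 1 fell, among them Ltbp2 (0.51, SE 0.06, adjusted p 0.00120), a matrix protein, and Bhlhe40 (0.45, SE 0.07, adjusted p 0.00351), a transcription repressor, while Tgfbi, a matrix protein, fell by 0.36. Ccn2 (0.27) was on both of these lists and counted as a rise in each. Without control array 3 or without knockout array 2, 3 of the SRF targets rose, and without control array 3, 3 of the TGF-beta targets rose. In 1 limma fit of all 18 arrays, Ankrd1, Ccn1, Vcl, Actn1, Bhlhe40 and Tgfbi lost their calls (adjusted p at least 0.248).

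Markers of other cells and of growth were set beside these values. Of 12 striated muscle markers 2 rose, Acta1 (0.44, SE 0.07, adjusted p 0.00512) and Tnni1 (0.29, SE 0.06), and 1 fell, Tnnt2 (-0.33, SE 0.08), where 7.11% of all genes were called higher and 4.93% lower. Of 9 pericyte markers 1 rose, Notch3 (0.39, SE 0.09), and 1 fell, Kcnj8 (-0.23, SE 0.07), and of 9 endothelial markers 2 rose, Cldn5 (0.36, SE 0.09) and Egfl7 (0.27, SE 0.07). Most of these calls depended on single arrays. Of the 6 fits that left out 1 array, Kcnj8 was called in 0, Notch3 and Egfl7 in 1 each, Cldn5 and Tnnt2 in 2 each and Tnni1 in 3. Kcnj8 also missed the threshold with the replicate number as a block (adjusted p 0.0503) and with quantile normalization (0.0558). The array means of the striated list averaged 7.40 in knockout and 7.36 in control fibroblasts, and those of the pericyte list between 7.77 and 7.88 in knockout and between 7.74 and 7.79 in control. Of 10 fibroblast markers 0 rose and 6 fell, led by Pdgfra, a growth factor receptor (-1.11, SE 0.06), and the matrix proteoglycan Dcn (-1.22, SE 0.10), and the list mean was 11.72 to 11.82 in knockout arrays against 12.13 to 12.21 in control arrays. Among the 6, Thy1 (-0.17) lost its call without control array 1, 2 or 3 or knockout array 3. Postn (-0.19) lost its call without control array 2 or 3 or knockout array 2 or 3 (limma adjusted p up to 0.157). Mfap5, a microfibril protein of that list, differed the other way by 0.39 (SE 0.13, adjusted p 0.0830), was higher in 3 of 3 same-numbered pairs, and passed as higher with the replicate number as a block (adjusted p 7.57e-04) and without knockout array 3 (0.0185). All 9 measured proliferation markers fell, with a median of -0.38 and at least 6 calls in each fit that left out 1 array, and array means of 10.58 to 10.73 in knockout against 10.97 to 11.08 in control fibroblasts. In 1 limma fit of all 18 arrays, the striated, pericyte and endothelial genes named above lost their calls (adjusted p at least 0.165). Pdgfra (0.192), Thy1 (0.981) and Postn (0.896) lost theirs there too. So did the proliferation markers Top2a, Ccnb1, Cdk1, Aurka, Nusap1 and Bub1 (adjusted p at least 0.0735). The part of the fibroblast marker and proliferation differences in the contractile gene result was not tested.

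**Figure D4:**
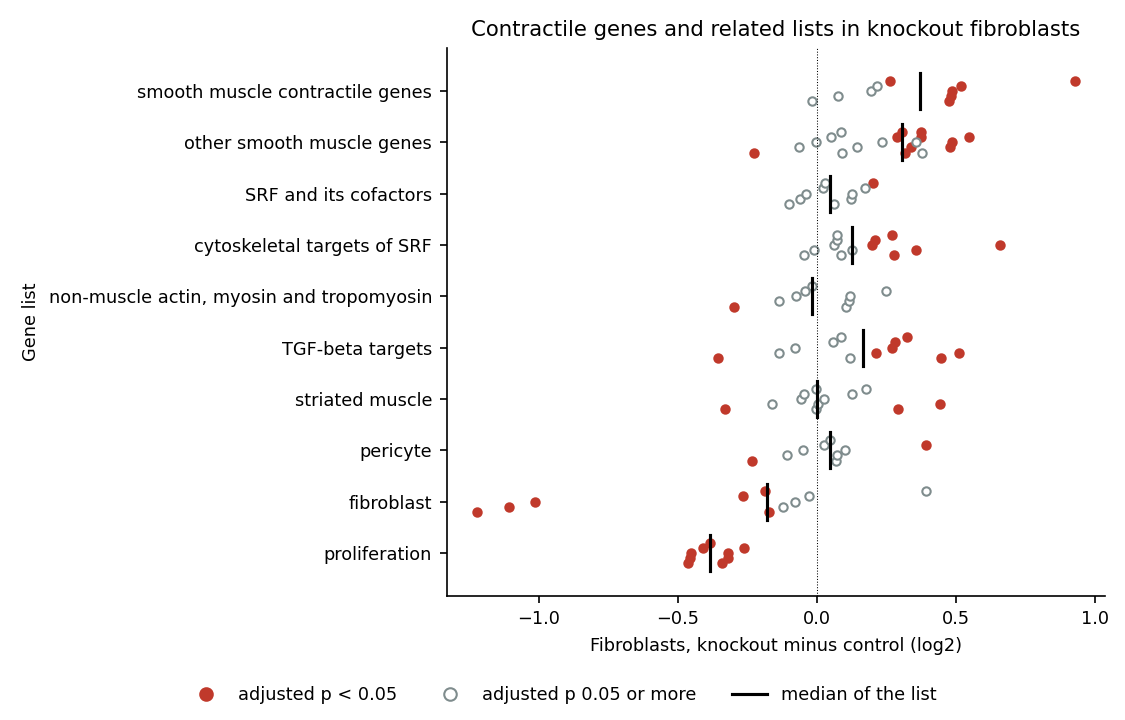
Knockout minus control in fibroblasts (log2, horizontal axis) for each measured gene of the 10 contractile genes (top row) and of 9 further lists; points are genes, filled where the adjusted p was below 0.05, and bars are list medians. The medians of the contractile genes and of the other smooth muscle genes are 0.37 and 0.30, and that of the proliferation list is -0.38.

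In ES cells, 0 of the 10 genes passed the threshold, and 0.0117% of all genes did (2 genes). At an unadjusted limma p under 0.05 there were 3 of the 10, all higher in the knockout, where 4.12% of all genes were higher by that rule. In 1 limma fit of all 18 arrays, 1 of the 10 passed, Actg2 (adjusted p 0.0328), where 632 of all 17091 genes did. Effects were positive for 8 of the 10, with a median of 0.28 against -0.03 over all genes.

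Acta2 read 13.27, 12.92 and 11.35 in knockout ES cells, against 11.40, 11.57 and 11.35 in control ES cells. Knockout arrays 1 and 2 lay above all controls and array 3 among them, and the mean difference was 1.08 (SE 0.44, adjusted p 0.579). Actg2 read 7.42, 7.13 and 6.38 in knockout ES cells, against 6.15, 6.14 and 6.26 in controls. It was the only one of the 10 genes whose ES cell groups did not overlap, where 15.6% of all genes did not, and it differed by 0.79 (SE 0.25, adjusted p 0.522). Cald1 read 11.30, 10.95 and 10.86 in knockout ES cells, against 10.96, 10.41 and 10.18 in controls, with 1 control array inside the knockout range and a difference of 0.52 (SE 0.22, adjusted p 0.585).

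Myl9 read 9.74, 9.31 and 8.93 in knockout ES cells, against 9.47, 8.31 and 8.09 in controls, a difference of 0.70 (95% interval -0.17 to 1.57). Control array 1 lay within the knockout range. Tagln was lower on average in the knockout, with 12.14, 11.69 and 10.63 in knockout ES cells, against 12.52, 11.83 and 11.78 in controls, a difference of -0.56 (95% interval -1.45 to 0.34, adjusted p 0.687). The remaining differences were 0.42 for Tpm2, 0.15 for Lmod1, 0.12 for Tpm1, 0.08 for Cnn1 and -0.15 for Myh11, with adjusted p-values of at least 0.714, and each of these had overlapping groups.

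The ES cell arrays of 1 group differed more from each other for these genes than for most. The median SD of the 10 genes was 0.53 in knockout and 0.40 in control ES cells, against 0.16 and 0.15 over all genes. In knockout array 1 all 10 genes stood above their group mean, by a median of 0.44, and in knockout array 3 none did (median -0.55). In control array 1, 7 of 10 stood above, with a median of 0.41. The mean of 12 extraembryonic endoderm markers was 10.14, 7.60 and 7.79 in the knockout arrays, against 7.97, 7.39 and 7.42 in the controls, and was thus highest in knockout array 1. Without both ES cell arrays numbered 1, the difference was 0.68 for Acta2, 0.55 for Actg2 and 0.92 for Myl9, and 0 of the 10 genes passed. The fibroblast marker mean was 7.70 to 8.05 in knockout and 7.69 to 7.75 in control ES cells, far under the 11.72 or more of every MEF array. No gene of the other smooth muscle, SRF or cytoskeletal target lists passed in ES cells, and the largest difference among these was that of Fhl1 (1.07, SE 0.27, adjusted p 0.522).

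In brain, 0 of the 10 genes passed, and 0.00585% of all genes did (1 gene). At an unadjusted limma p under 0.05 the count was again 0, where 7.33% of all genes passed, and the groups overlapped for all 10, where 14.0% of all genes had groups that did not. Ccnc itself, the deleted gene, differed by -0.69 in brain and was not called either (limma adjusted p 0.627). The test can thus miss a real change there. Differences of the 10 genes ran from -0.20 for Tpm1 to 0.20 for Cald1. Acta2 read 9.23, 9.53 and 9.34 in knockout brain, against 9.10, 8.98 and 9.66 in control brain, a difference of 0.12 (95% interval -0.27 to 0.51). Myh11 read 5.97, 6.10 and 6.03 in knockout brain, against 5.69, 6.08 and 5.87 in control brain, a difference of 0.15 (95% interval -0.08 to 0.39). The fibroblast differences of Acta2, Tagln, Tpm2 and Cald1 lay inside the brain intervals of the same genes. Those of the other members lay above them, as for Myh11 (0.93 in fibroblasts). In the direct limma test, however, the Myh11 effect was not called different between fibroblasts and brain (0.78, adjusted p 0.230). The floor of values as low as those of Myh11 in brain is unknown. The mean of the pericyte list averaged 7.98 over knockout and 7.94 over control brain arrays.

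The knockout effect was compared between cell types in 1 limma fit of all 18 arrays. The effect on Myh11 was 1.08 higher in fibroblasts than in ES cells (SE 0.24, adjusted p 0.0429), the only 1 of the 10 genes called, where 0.995% of all genes were. That call was lost with array weights per cell type (adjusted p 0.0725), with quantile normalization (0.0762) and in 10 of the 12 fits that left out 1 array, with adjusted p-values up to 0.136. Myh11 values were low in ES cells, where the floor is unknown. Cald1 had an effect 0.54 lower in fibroblasts than in ES cells (SE 0.21, adjusted p 0.260), which passed with the replicate number as a block (0.0264) and without ES cell control array 1 (-0.76, adjusted p 0.0317). Acta2 had a lower effect in fibroblasts than in ES cells (95% interval of the difference -1.95 to -0.053, adjusted p 0.321), and without knockout ES cell array 3 the difference was -1.58 (adjusted p 0.00293). These 3 genes were the ones with an unadjusted limma p under 0.05 in that contrast, where 14.2% of all genes passed. Between fibroblasts and brain 0 of the 10 differed by this test, where 0.334% of all genes did, and at an unadjusted limma p under 0.05 there were 2, where 9.79% of all genes passed, Myh11 (0.78, SE 0.24, adjusted p 0.230) and Lmod1 (0.54, SE 0.19, adjusted p 0.301). Between brain and ES cells 0 of the 10 differed, where 0.275% of all genes did, and 2 had an unadjusted limma p under 0.05, where 15.0% of all genes did, Acta2 (-0.96, SE 0.45) and Actg2 (-0.64, SE 0.27). Without knockout ES cell array 3 the difference for Acta2 was -1.54 and was called (adjusted p 0.00635). For Actg2, Cnn1, Myl9, Tpm1 and Lmod1 the rise in fibroblasts is therefore not shown to differ from the effect in ES cells or in brain.

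The 10 genes were also set against each other across the 18 arrays after centring each gene on its 6 group means, which leaves the variation between arrays of 1 group. The Pearson correlation of a gene with the mean of the other 9 was 0.97 for Tagln, 0.94 for Tpm2, 0.89 for Cnn1, 0.84 for Tpm1, 0.81 for Myl9, 0.78 for Cald1, 0.72 for Actg2 and 0.71 for Acta2, against 0.39 for Myh11 and 0.37 for Lmod1. By this pooled measure Myh11 and Lmod1 thus varied least with the others. In knockout and in control fibroblasts, however, array 3 was the lowest of its group for Myh11 and for Lmod1, as for most of the 10 genes. The 5 genes outside the list that were closest to the mean of the 10 by this measure were Slc16a6 (0.95), Hand2 (0.93), Prr5l (0.92), Plk5 (0.92) and Pea15a (0.92). Without centring, where the difference between cell types dominates, the closest were Flnc, filamin C of muscle (0.997), Sec24d (0.995), Morrbid (0.995), Itgb5 (0.995) and Rexo2 (0.994). These correlations describe 18 arrays that share groups and normalization, and the ES cell arrays, with the widest spread, weigh most in the centred ones.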

How the data were processed

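The authors deposited 1 table of log2 values for 18 arrays, summarised with RMA per the submitters' processing notes. Array type, RMA version and the extent of joint normalization were not given in the sources used here. Total RNA (TRIzol, then RNeasy) was reverse transcribed from oligo-dT and made into biotinylated cRNA, per the labels' protocols, which favours transcript 3′ ends. Because RMA equalises the arrays, a shift of most genes together is invisible. Array medians ran from 8.26 to 8.35. Arrays give no read depth, and 3 arrays a group limit the precision.

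Of 24121 transcript probe sets, 22560 matched 1 symbol of the RefSeq table and 1561 matched none. No filter on low values was used. Tests were made with limma 3.58.1 (lmFit, then eBayes with trend) under R 4.3.3, with calls at a Benjamini-Hochberg adjusted p under 0.05 over all 17091 genes. Knockout and control were compared in each cell type alone, control cell types in 1 fit of the 9 control arrays, and effects between cell types in 1 fit of 18. Contrasts of cell types share arrays. The fits were tested on simulated data. Figures were drawn with matplotlib 3.10.9.

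The members, lists and tests were chosen with earlier results of these data known. The text names all 10 members, Ccnc, the genes of the SRF list except 1 that is not reported here, of each other list at most the 4 called genes with the smallest p, and the 5 genes most like the members by each measure; Actb, Fhl1 in ES cells, Myh11 beside brain and some markers were named after their values were seen. Beside the list of SRF cofactors, lists held other smooth muscle, SRF target, non-muscle, TGF-beta and cell type marker genes.

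The labels number replicates 1 to 3 in each group. Deviations of same-numbered knockout and control arrays from their group means correlated across all genes at 0.36, 0.16 and 0.19 in fibroblasts, 0.29, 0.35 and 0.47 in brain, and 0.37, 0.32 and 0.08 in ES cells. The numbers were taken to pair arrays in fibroblasts and brain, on the values and not the labels. The main tests used no block. Where the replicate block was used, it paired same-numbered arrays in every cell type fitted, ES cells included. There, knockout array 3 correlated more with control array 2 (0.20) than with control array 3 (0.08). Alternatives were a replicate block, 1 fit of 18 arrays, quantile normalization, averaged probe sets, genes above the 40th percentile only, no trend, array weights and each array left out.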

Additional observations from a re-analysis of the deposited data

Results flagged for a closer look

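The knockout effect on Myh11 differed between fibroblasts and ES cells by 1.08 on the log2 scale in the limma interaction test (adjusted p 0.0429). Knockout minus control was 0.93 in fibroblasts, with all 3 knockout arrays above all controls, and -0.15 in ES cells, with overlapping arrays. Myh11 averaged only 6.22 in knockout and 6.37 in control ES cells, and the floor of values that low is unknown. The difference kept its sign in all 12 fits that left out 1 array, from 0.87 to 1.29, while its adjusted p ran from 0.0109 to 0.136.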

How the results depend on the processing

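Of 1114 values of the 10 genes under alternatives, 1032 kept their sign and their side of the threshold, 34 lost the call, 18 gained it and 30 changed sign. None of the calls of fibroblasts against ES cells or brain in controls was lost where the gene was tested. With the replicate block, the fibroblast count of called members was 8 against 6, and the MEF minus ESC count of differing effects was 2 against 1; it changed no other count over members. In 1 fit of all 18 arrays, 1 member was called in ES cells and 1 in fibroblasts. Array weights gave 0 members for MEF minus ESC and 1 for MEF minus brain, Myh11 (adjusted p 0.0338), and quantile normalization 0 for MEF minus ESC. With single arrays left out, members called ranged from 2 to 8 for fibroblasts, 4 to 7 for control brain against control ES cells, 0 to 1 for MEF minus ESC and 0 to 1 for brain minus ESC. The causes were not tested.

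Over all genes, called counts were 632 in ES cells in 1 fit of 18 arrays, 1 with the block and 6 without both arrays numbered 1, against 2, and 0 to 6 with single arrays left out. They were 210 in fibroblasts in 1 fit of 18, against 2058, and 900 to 2609 with single arrays left out. In brain the block gave 15 against 1. For MEF minus ESC the block gave 523, array weights 82 and left-out arrays 30 to 391, against 170. For MEF minus brain these were 183, 487 and 6 to 68, against 57. For brain minus ESC they were 323, 10 and 9 to 220, with 25 under quantile normalization, against 47.

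No value that changed sign had passed the test. Under quantile normalization these were Cnn1 in brain (-0.000531) and Acta2 for MEF minus brain (0.0186). With single arrays left out, ES cell differences ran from -0.204 to 0.437 for Cnn1, -0.361 to 0.0601 for Myh11 and -0.154 to 0.363 for Tpm1. Brain differences ran from -0.0137 to 0.325 for Acta2, -0.0141 to 0.154 for Tagln, -0.0266 to 0.146 for Cnn1, -0.0660 to 0.169 for Myl9 and -0.136 to 0.0819 for Lmod1. MEF minus ESC ran from -0.642 to 0.0499 for Myl9, -0.0994 to 0.418 for Tpm1 and -0.538 to 0.0622 for Tpm2. MEF minus brain ran from -0.251 to 0.0881 for Acta2 and -0.0347 to 0.107 for Tpm2, and brain minus ESC from -0.392 to 0.249 for Cnn1 and -0.566 to 0.0341 for Tpm2. Signal over background per probe is not given in the values used here, so the floor of the lowest levels is unknown.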
